A study of Homo sapiens with 17 samples.

Results

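The genes described are 7 metallothioneins (MT2A, MT1X, MT1G, MT1H, MT1E, MT1F and MT1M) and 3 genes of zinc handling (MTF1, SLC30A1 and SLC39A10), 10 of the 18377 genes that the arrays name. The set was selected on measured values, namely the differences of metallothioneins after JAK3 siRNA, and each gene is represented by the probe set that had 1 annotated symbol and the highest mean signal over all arrays. NKYS cells, an established human NK/T-cell lymphoma line, were grown with interleukin-2 and electroporated with siRNAs or plasmids, and RNA was measured on 17 arrays as linear signal intensity. All groups share that line, that medium and that procedure. The siRNA groups were JAK3 siRNA (2 arrays) against its own control siRNA (2 arrays), and EZH2 siRNA (2 arrays) against a control siRNA paired with it (2 arrays). The plasmid groups were an EZH2 plasmid without the SET domain (1 array), full-length EZH2 plasmids (6 arrays, titled Y244D, Y244A or WT, 2 arrays each) and an empty vector (2 arrays). JAK3 is a kinase that signals from receptors such as that of interleukin-2, EZH2 is a histone methyltransferase of Polycomb repressive complex 2, and Y244D and Y244A change the same tyrosine of EZH2. On the 3 full-length arrays numbered 2, title and transfection field name different constructs, so those arrays are named by title and alleles were also compared by field. The WT array without a number was taken as number 2.

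The labels leave unsaid whether replicate arrays stem from separate cultures, and the p-values then measure array-to-array spread that may be technical. The plasmid arrays stood apart from the siRNA arrays. Their median signal was 64.48 to 72.98, against 60.28 to 62.46 on the siRNA arrays, and their interquartile range of log2 signal was narrower, 1.79 to 2.18 against 2.27 to 2.33. The narrowest were vector 1 (1.79), Y244D 1 (1.85) and the SET-deleted array (1.86), and full-length plasmids against vector and the split by plasmid set are given with and without the first 2 of them. Of 10 natural killer cell markers, 6 lay above the array median on all 17 arrays (GZMB, PRF1, NKG7, NCR1, TBX21 and EOMES), as did 1 of 6 T cell markers (CD4), 2 of 4 B cell markers (CD79B and PAX5), 1 of 5 monocyte markers (CSF1R) and 3 of 5 epithelial or fibroblast markers (KRT18, COL1A1 and COL1A2). The summed natural killer marker signal was 4079 to 6748 on plasmid arrays and 7234 to 11480 on siRNA arrays. Arrays measure bulk RNA, so that fewer cells of a type and less RNA per cell cannot be told apart.

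Metallothioneins are small cysteine-rich proteins that bind zinc and copper and keep the free ions scarce. When zinc in the cell rises, it binds the transcription factor MTF1, which then binds metal response elements upstream of the metallothionein genes and of SLC30A1 and raises their transcription. SLC30A1 (ZnT1) exports zinc across the plasma membrane, and SLC39A10 (ZIP10) brings zinc in. In mouse and zebrafish, MTF1 lowers transcription of the SLC39A10 gene when zinc is plentiful.

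The sequences just upstream of 4 of the genes are shown because they carry the letters of the metal response element, a feature that 3 of the metallothioneins and the exporter share and that the choice of genes did not use. The core was searched as TGCACNC or TGCGCNC on both strands, with overlapping matches allowed, in the 250 bases before the RefSeq start (GRCh38.p14). Capitals mark the matches, read along the strand of the gene; a match on the other strand therefore shows as its reverse complement. The windows are chr16:56608334-56608583 (plus strand) for MT2A, chr16:56682220-56682469 (plus) for MT1X, chr16:56669564-56669813 (plus) for MT1H and chr1:211579162-211579411 (minus) for SLC30A1.
MT2A: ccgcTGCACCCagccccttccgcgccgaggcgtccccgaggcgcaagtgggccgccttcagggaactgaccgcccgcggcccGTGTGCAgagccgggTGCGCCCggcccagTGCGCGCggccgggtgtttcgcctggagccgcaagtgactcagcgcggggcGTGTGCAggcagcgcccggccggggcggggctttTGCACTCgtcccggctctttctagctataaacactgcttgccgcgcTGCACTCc
MT1X: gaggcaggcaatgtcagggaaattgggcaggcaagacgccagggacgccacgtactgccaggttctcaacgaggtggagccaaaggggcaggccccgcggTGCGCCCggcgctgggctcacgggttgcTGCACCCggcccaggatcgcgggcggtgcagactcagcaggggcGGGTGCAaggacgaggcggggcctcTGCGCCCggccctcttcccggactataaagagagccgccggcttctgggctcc
MT1H: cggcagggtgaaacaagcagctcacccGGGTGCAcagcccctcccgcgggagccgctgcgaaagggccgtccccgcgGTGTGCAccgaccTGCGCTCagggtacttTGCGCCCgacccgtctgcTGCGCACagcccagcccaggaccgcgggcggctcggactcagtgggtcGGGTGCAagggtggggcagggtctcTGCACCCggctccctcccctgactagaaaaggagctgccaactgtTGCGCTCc
SLC30A1: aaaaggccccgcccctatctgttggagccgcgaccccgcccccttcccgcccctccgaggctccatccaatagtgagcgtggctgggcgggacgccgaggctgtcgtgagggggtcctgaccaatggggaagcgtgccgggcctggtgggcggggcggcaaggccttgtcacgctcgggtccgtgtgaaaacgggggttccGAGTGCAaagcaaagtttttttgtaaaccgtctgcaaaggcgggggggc

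MT2A held 7 matches (5 on its own strand), MT1X held 4 (3 on its own strand), MT1H held 8 (5 on its own strand) and SLC30A1 held 1, on the opposite strand. MTF1 and both start windows of SLC39A10 held 0, which says only that these letters are not in those windows. Of all 35116 windows of this length, 24.8% held at least 1 match, 0.37% at least 4, 0.0313% at least 7 and 0.0171% at least 8. The single match of SLC30A1 was therefore a common state, and the counts of the 3 metallothioneins were rare ones. A match began at -54 in MT2A and at -53 in both MT1X and MT1H, counted from the start of the gene. A match is a description of letters and not a measured binding site. Windows were found for 6 of the 10 genes; MT1E, MT1F, MT1G and MT1M are named only. In RefSeq all 7 metallothioneins lie on chromosome 16, in the order MT2A, MT1E, MT1M, MT1F, MT1G, MT1H and MT1X.

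**Figure D1:**
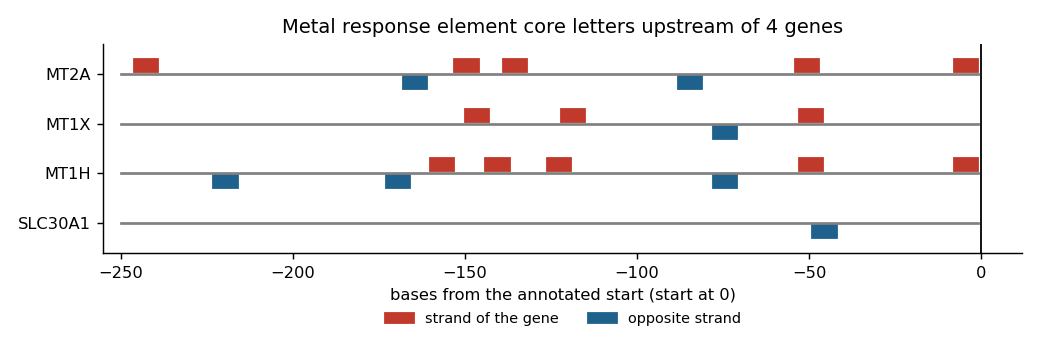
Each line is the 250 bases upstream of a gene, with position in bases from the annotated start on the horizontal axis; red boxes above the line are matches to the metal response element core on the strand of the gene, and blue boxes below are matches on the opposite strand. MT2A has 7, MT1X 4, MT1H 8 and SLC30A1 1.

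After JAK3 siRNA, signal of 4 of the 7 metallothioneins was at least 1.26-fold higher, led by MT2A at 1.68-fold and MT1X at 1.51-fold, and the other 3 lay near their controls. MTF1 and SLC39A10 did not lie higher with them, and SLC30A1 differed by 1.10-fold. JAK3 itself was 138.1 and 136.7 with JAK3 siRNA and 322.5 and 326.3 with its control siRNA, 2.36-fold lower (log2 change -1.24, limma, adjusted p = 5.7e-06). The genes were chosen with this contrast in view, so their values here are a description and carry no test.

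MT2A, a widely expressed human metallothionein, had 2178 and 2204 with JAK3 siRNA, against 1314 and 1292 with the control siRNA. Both JAK3 siRNA arrays lay above every other array of the series, and both of their controls lay above the 13 remaining ones. The log2 difference was 0.75 (SE 0.070), and each siRNA array taken alone gave 0.74 and 0.76. MT1X, which encodes another zinc-binding metallothionein, had 469.6 and 466.8, against 337 and 285.6. Its siRNA arrays agreed within a few units while its controls were spread, and the groups did not overlap (log2 difference 0.59, SE 0.085; 0.47 without control 2 and 0.71 without control 1).

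MT1G had 114.2 and 137.4 with JAK3 siRNA, against 94.96 and 95.33 with the control siRNA (log2 difference 0.40, SE 0.088). The size for MT1G rested on siRNA array 2, since array 1 alone gave 0.26 and array 2 alone 0.53. MT1H had 106 and 110.4, against 88.32 and 82.76 (log2 difference 0.34, SE 0.072; 1.26-fold). Both JAK3 siRNA arrays of MT1G and of MT1H lay above the other 15 arrays of the series.

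MT1E had 110.9 and 101.6 with JAK3 siRNA, against 108.4 and 109.8 with the control siRNA, and the groups overlapped (log2 difference -0.04). MT1F had 116.1 and 113.2, against 103.9 and 108.9, a difference of 0.11 without overlap. MT1M had 53.41 and 42.66, against 49.2 and 46.96, and overlapped its control (-0.01). The median difference of the 7 metallothioneins was 0.34 on the log2 scale, and that of all 14466 genes tested was -0.01. In the fit over all genes 4 of the 10 genes passed, all higher, beside 1.38% of all genes (0.622% higher), a count that the choice of genes already fixes. That count was 2 under quantile normalization, under median centring with or without equal interquartile ranges, without the filter on dim genes and with same-numbered arrays as a block, and 1 or 2 when any of the 4 arrays was left out.

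**Figure D2:**
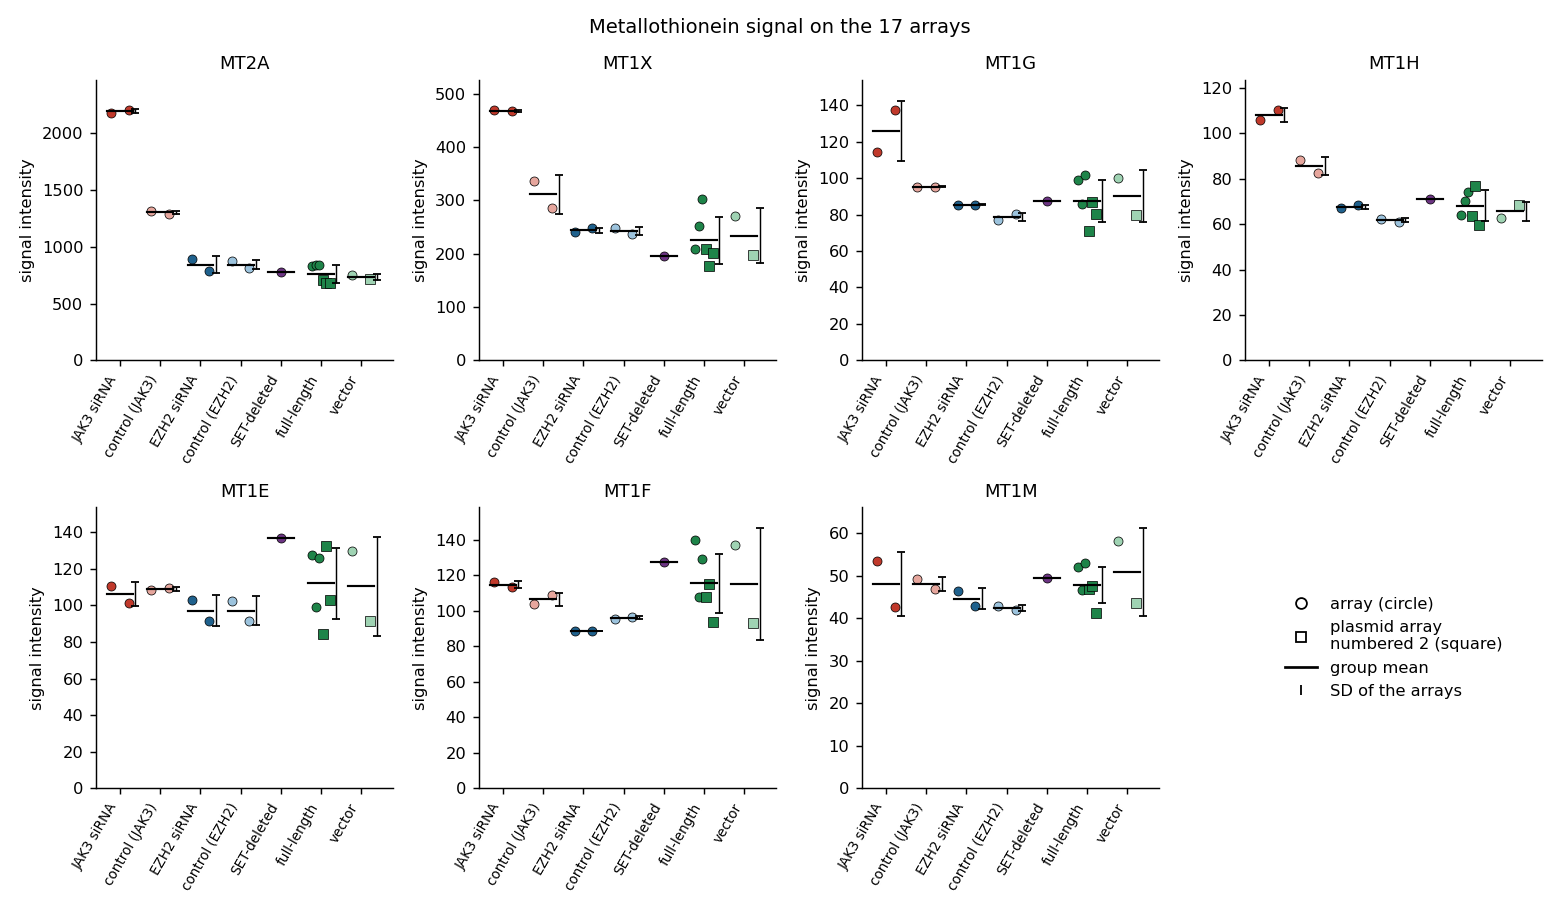
Signal intensity (linear scale, from 0) of the 7 metallothioneins on the 17 arrays; points are arrays, squares are plasmid arrays numbered 2, horizontal lines are group means and vertical bars are the SD of the arrays of a group. MT2A and MT1X lie highest on the 2 JAK3 siRNA arrays; the 2 controls come next for MT2A, while for MT1X WT 1 (301.7) lies between them. MT1E, MT1F and MT1M each span a wider range on the plasmid arrays than on the siRNA arrays.

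The zinc handling genes differed among themselves. MTF1 had 457.7 and 440.3 with JAK3 siRNA, against 457.8 and 433.9 with the control siRNA, so that the groups overlapped nearly completely (log2 difference 0.01, SE 0.074). SLC30A1, the exporter, had 305.1 and 296.1, against 290.9 and 256.4, a log2 difference of 0.14 (SE 0.079). It did not overlap its control, but its difference from the nearer control array was smaller than the gap between the 2 controls. SLC39A10, the importer, had 333.7 and 380.3, against 405.6 and 394.8, a difference of -0.17 (SE 0.085). The exporter thus lay on the side of the higher metallothioneins and the importer on the other, each by far less than MT2A. The 95% confidence intervals were -0.03 to 0.31 for SLC30A1, -0.35 to 0.02 for SLC39A10 and -0.15 to 0.17 for MTF1. They describe array spread and are not read as a test, since the genes were chosen with this contrast in view. SLC39A10 also lay lower after EZH2 siRNA (-0.19).

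**Figure D3:**
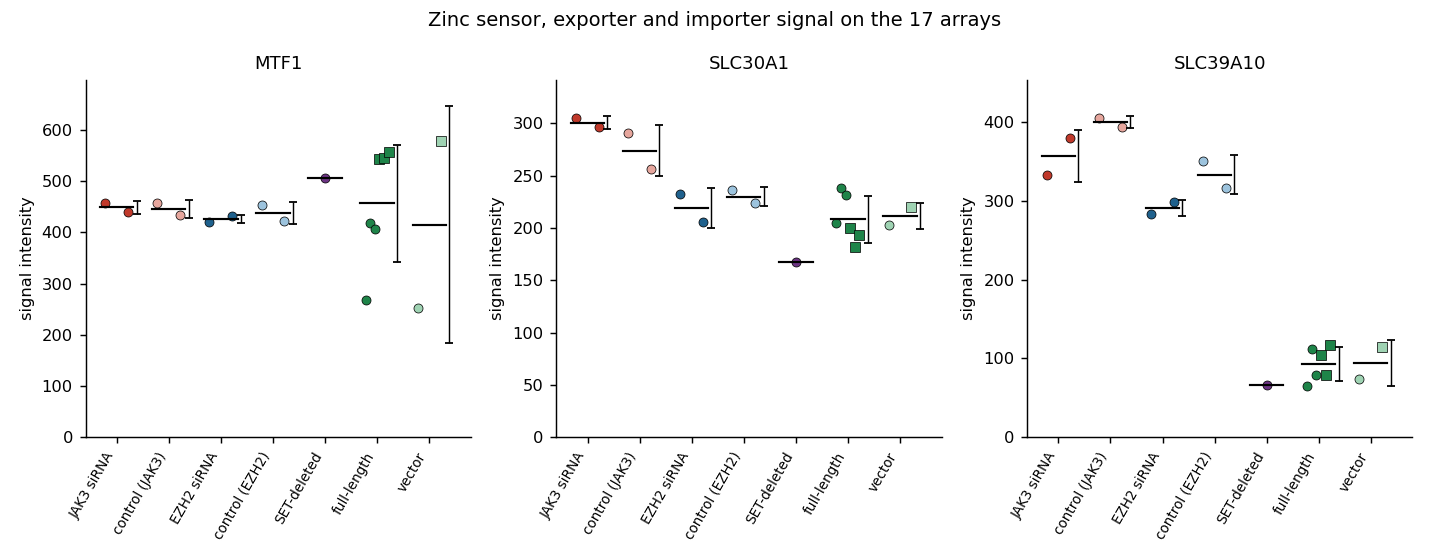
Signal intensity (linear scale, from 0) of MTF1, SLC30A1 and SLC39A10 on the 17 arrays; points are arrays, squares are plasmid arrays numbered 2, lines are group means and bars are the SD of a group's arrays. MTF1 splits by plasmid set, with 251.7 on vector 1 and 578.6 on vector 2, and SLC39A10 is between 64.49 and 117.6 on all 9 plasmid arrays and between 284.2 and 405.6 on the 8 siRNA arrays.

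The control siRNA arrays of the JAK3 arm also stood above those of the EZH2 arm in most of these genes. MT2A was 1314 and 1292 in the JAK3 arm controls and 870.4 and 816.3 in the EZH2 arm controls, a log2 gap of 0.63, nearly as large as the JAK3 siRNA difference. The gap was 0.47 for MT1H, 0.36 for MT1X, 0.28 for MT1G, 0.27 for SLC39A10 and 0.25 for SLC30A1. It was 0.15 for MT1F, 0.17 for MT1E and 0.18 for MT1M, and 0.03 for MTF1. The gap was larger than the JAK3 siRNA difference for MT1H (0.34) and SLC30A1 (0.14), and smaller for MT1X (0.59) and MT1G (0.40). Both control groups received a control siRNA, so the level of MT2A differed between arms without JAK3 siRNA. The labels do not say whether the arms were run apart, and the part of the arm in the levels was not tested. Monocyte markers summed to 357.9 to 366.3 with JAK3 siRNA and to 329.4 to 338.3 with its control, natural killer markers to 9580 to 9680 against 9378 to 9427. Of the 10 natural killer markers 0 were called higher and 2 lower, KLRD1 (log2 change -0.47, limma adjusted p = 0.00991) and NCAM1 (-0.36, 0.0298). Among all genes 0.622% were called higher and 0.76% lower. For both marker lists their part in the result was not tested.

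MT2A was the one gene of the 10 with more than 1 probe set, and its 3 probe sets all lay higher with JAK3 siRNA. The log2 difference was 0.75 on the highest-mean probe set, 0.98 on the second (2448 and 2542 with JAK3 siRNA, against 1271 and 1252 with the control) and 0.76 on the remaining one (1248 and 1220, against 735.9 and 725.2). The highest-mean and the remaining probe set had like differences in each comparison, while the second had 316.8 and 559.7 with vector, against 845.3 and 838 with the EZH2 arm control siRNA, a log2 difference of -1.00 beside -0.20 on each of the others. Human metallothionein genes are near-identical in sequence, so a probe set may take signal from relatives or pseudogenes, and the split of signal between them is uncertain. That includes the highest-mean probe set, on which the MT2A values rest unless another probe set or the mean of probe sets is named.

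**Figure D4:**
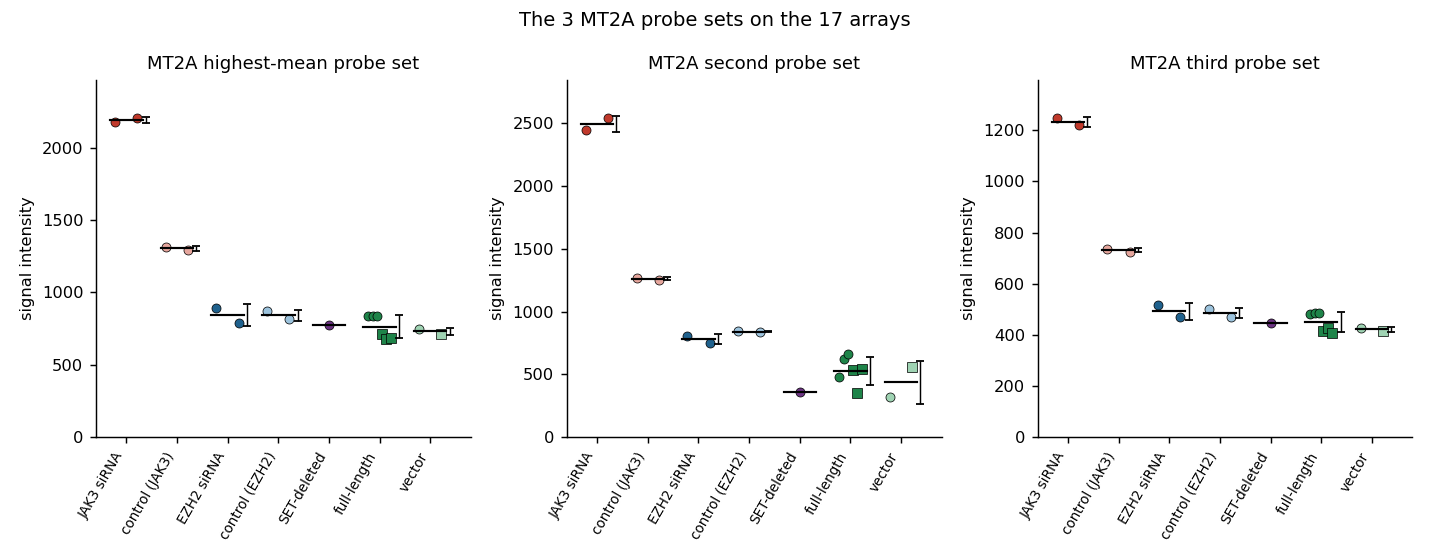
Signal intensity (linear scale, from 0) of the 3 probe sets that name MT2A alone, on the 17 arrays; points are arrays, squares are plasmid arrays numbered 2, lines are group means and bars are the SD. All 3 are highest with JAK3 siRNA, and the second probe set is lower relative to the siRNA controls on plasmid arrays than the other two.

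EZH2 siRNA left the 10 genes without a called change. EZH2 itself was 500.9 and 488.7 with EZH2 siRNA and 926.3 and 690.8 with the paired control siRNA, 1.62-fold lower (log2 change -0.69, limma, adjusted p = 0.0275). The test called 0 of the 10 genes, beside 136 of 14466 genes (0.94%; 0.373% higher and 0.567% lower); at an unadjusted p under 0.05 the counts were 1 of 10 and 2253. This contrast took no part in choosing the genes. MT2A had 895.4 and 789.2 with EZH2 siRNA, against 870.4 and 816.3 with the control, higher in pair 1 and lower in pair 2 (log2 change -0.004, 95% confidence interval -0.16 to 0.15, limma adjusted p = 0.991).

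MT1X had 0.01 (interval -0.18 to 0.19), MT1G 0.12 (-0.07 to 0.31) and MT1H 0.13 (-0.02 to 0.29). MT1G, MT1H and MT1M were above the control in both pairs, and MT1F (-0.11, interval -0.27 to 0.04) and SLC30A1 were below it in both, without a call. SLC39A10 had the smallest unadjusted p of the 10, with 284.2 and 298.4 with EZH2 siRNA, against 351 and 316.1 with the control (log2 change -0.19, limma, unadjusted p = 0.0409, adjusted p = 0.291). The importer was lower in both pairs, with differences of -0.30 in pair 1 and -0.08 in pair 2, and did not pass. MTF1 (-0.04) and SLC30A1 (-0.07) had intervals that included 0.

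Full-length EZH2 plasmids were set against the empty vector next. EZH2 signal was 802.5 to 2221 (median 950.7) on the 6 full-length arrays, against 258.8 and 349.5 with vector, 3.60-fold higher (limma, unadjusted p = 0.000348, adjusted p = 1). The test called 0 of 14410 genes (0%), EZH2 included, so that a count of 0 of the 10 genes says little. In it, 10 genes, none of them among the 10, had an unadjusted p under 0.05. EZH2 signal with vector was itself 2.66-fold lower than with the EZH2 arm control siRNA, at 926.3 and 690.8 (limma, adjusted p = 0.0147). The 3.60-fold is therefore a difference from vector and not from the siRNA controls. MT2A was 678.7 to 836.7 (median 772.6) with full-length plasmids, against 715.4 and 750 with vector, a log2 change of 0.05 (interval -0.28 to 0.38). For MT1X the range was 177.6 to 301.7 (median 208.6), against 197.4 and 270.7 (-0.06, interval -0.54 to 0.42). In both genes the vector arrays lay inside the range of the full-length arrays.

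The interval was widest for MTF1, 0.21 (-0.55 to 0.98), whose arrays split by set, as described next. SLC30A1 had -0.03 (interval -0.36 to 0.30) and SLC39A10 -0.015 (-0.59 to 0.56). With the set number as a block the intervals were narrower, -0.19 to 0.29 for MT2A, -0.39 to 0.27 for MT1X and -0.20 to 0.63 for MTF1, and again 0 genes were called (54 at an unadjusted p under 0.05, none of the 10). Within set 1 alone the full-length mean lay above vector for MT2A (0.16), MT1H (0.15), MTF1 (0.505), SLC30A1 (0.14) and SLC39A10 (0.18), and within set 2 it lay below for MT2A (-0.05), MT1H (-0.05), MTF1 (-0.08), SLC30A1 (-0.20) and SLC39A10 (-0.21). MT1E (-0.15 in set 1, 0.20 in set 2), MT1F (-0.14, 0.18) and MT1M (-0.20, 0.05) turned the other way, and MT1X and MT1G lay below vector in both sets. Without vector 1 and Y244D 1, which leaves 1 vector array, the change was 0.06 for MT2A, -0.24 for MTF1, -0.09 for SLC30A1 and -0.24 for SLC39A10, again with no call. A test of whether the difference of full-length plasmids from vector changed between sets called 0 of 14410 genes, with 1762 at an unadjusted p under 0.05. Y244D against Y244A, alleles of the same residue, called 0 of 14410 genes (0%) and 0 of the 10, with 0 genes at an unadjusted p under 0.05. The allele difference of MT2A was 0.03, with an interval of -0.50 to 0.56 (-0.37 to 0.43 with the set number as a block). With constructs read from the transfection field it was -0.01 (interval -0.50 to 0.49), and MT1E, MT1G and MT1H were at 0.37, 0.16 and 0.11, against -0.14, -0.05 and -0.21 by title. That reading called 0 genes too, with 183 at an unadjusted p under 0.05, of which SLC39A10 was 1 (-0.68, unadjusted p = 0.0358, limma adjusted p = 0.803).

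The SET-deleted plasmid has 1 array and no test. Its MT2A signal was 775.4 and its MT1X signal 195.6, against vector arrays at 715.4 to 750 and 197.4 to 270.7. Over the 7 metallothioneins the median difference from the vector mean was 0.08. MTF1 was 506.5, between the vector arrays, while SLC30A1 (167.3, against 203 and 220.3 with vector) and SLC39A10 (66.66, against 73.33 and 114.7) lay below both of them. MT1E stood at 137.2 on the SET-deleted array, the highest of all 17 arrays for that gene. EZH2 signal there was 1471, above both vector arrays.

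The plasmid arrays split by the number in their titles, and MTF1 was the gene of the 10 that split furthest. It had 542.6, 546, 557 and 578.6 on the arrays numbered 2, against 251.7, 267.7, 407.3 and 418.2 on those numbered 1, with no overlap. The log2 change of set 2 against set 1 was 0.76 (SE 0.163, 1.70-fold, limma adjusted p = 0.00876). MT1X was lower in set 2, with 177.6, 197.4, 202.2 and 208.5, against 208.8, 251.8, 270.7 and 301.7, also without overlap (log2 change -0.39, SE 0.128, adjusted p = 0.0414). These were 2 of the 10 genes, beside 4966 of 14410 genes (34.5%; 21.8% higher and 12.7% lower), a share that the genes did not exceed.

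MT2A was 678.7, 684.3, 711.3 and 715.4 in set 2 and 750, 834, 836.1 and 836.7 in set 1, without overlap, and did not pass (-0.22, adjusted p = 0.0832). MT1F (-0.33, adjusted p = 0.0611), MT1G (-0.28 and 0.0651, in the same order), MT1M (-0.225, 0.109) and MT1E (-0.24, 0.212) had negative values that did not pass either, and MT1H was at -0.02. SLC39A10 was at 0.35 (adjusted p = 0.141) and SLC30A1 at -0.14 (0.289). Across the 9 plasmid arrays the log2 signal of several genes moved with the interquartile range of the array. Pearson r was 0.91 for SLC39A10, 0.78 for MTF1, -0.94 for MT1F, -0.87 for MT1M and -0.86 for MT1E. For MT2A it was -0.49, for MT1X -0.32 and for MT1H -0.11. The range was 1.79 to 2.03 on arrays numbered 1 and 1.99 to 2.18 on those numbered 2. It thus went in part with the set, and r is given as a description. The part of the range in the split was not tested. Without vector 1 and Y244D 1 the MTF1 change was 0.41 (adjusted p = 0.0782) and that of MT1X -0.495 (0.0693), and neither passed. In all, MT1X failed in 9 of 16 alternatives, median centring among them (-0.29, adjusted p = 0.142). Without either Y244A array the count was 5 of 10, and SLC39A10 was then among those higher in set 2 (0.52 without Y244A 1 and 0.48 without Y244A 2). MT1F and MT1G passed there too, as lower in set 2 (MT1F -0.42 and -0.39, MT1G -0.34 and -0.33), and MT1E passed without Y244A 2 (-0.38, adjusted p = 0.0321). Across the fits that each left out 1 array, 1680 to 8353 of all genes were called, beside 4966 with all arrays. These added passes are therefore to be read beside that background. SLC30A1 passed after quantile normalization (-0.39, adjusted p = 0.00905). MT2A passed after quantile normalization (-0.49, adjusted p = 0.00789), with equal interquartile ranges (-0.52, 0.00787) and without the filter (-0.22, 0.0429).

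Between plasmids and siRNAs, 1 of the 10 genes stood far apart. SLC39A10 had 73.33 and 114.7 with vector, against 351 and 316.1 with the control siRNA of the EZH2 arm, 3.63-fold lower (log2 change -1.86, SE 0.263, limma adjusted p = 0.000283, interval -2.42 to -1.30). All 9 plasmid arrays, at 64.49 to 117.6, lay below all 8 siRNA arrays, at 284.2 to 405.6. The change was -2.18 for vector 1 and -1.54 for vector 2, and it passed in all 14 alternatives. The test called 2701 of 14433 genes (18.7%; 2.8% higher and 15.9% lower), so a call of 1 in 10 genes was no higher than the share of all genes. The electroporated cargo and any difference in when or how the arrays were run cannot be told apart here.

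No metallothionein passed in the same comparison. MT2A had -0.20 (adjusted p = 0.261), and it passed with each array centred on its median (-0.37, adjusted p = 0.0449), with the mean of its probe sets (-0.47, 0.0462) and against all 4 control siRNA arrays (-0.52, 0.0062), while quantile normalization gave 0.24. The sign of MT2A therefore depended on scaling, as did that of MT1X (-0.07, and 0.315 after quantile normalization), MTF1 (-0.20, and 0.23), SLC30A1 (-0.12, and 0.20) and MT1H (0.09, and -0.10). MTF1 was at -0.80 for vector 1 and 0.40 for vector 2. Without vector 2, which leaves 1 vector array, MT1F was at 0.515 and MT1M at 0.46. Without vector 1 they were at -0.05 and 0.04, in the same order. Epithelial and fibroblast markers summed to 465.2 to 875.1 with vector, against 400.3 to 404.6 with the control siRNA, and natural killer markers to 5003 to 5276, against 7234 to 10540. Their part in the SLC39A10 difference was not tested.

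**Figure D5:**
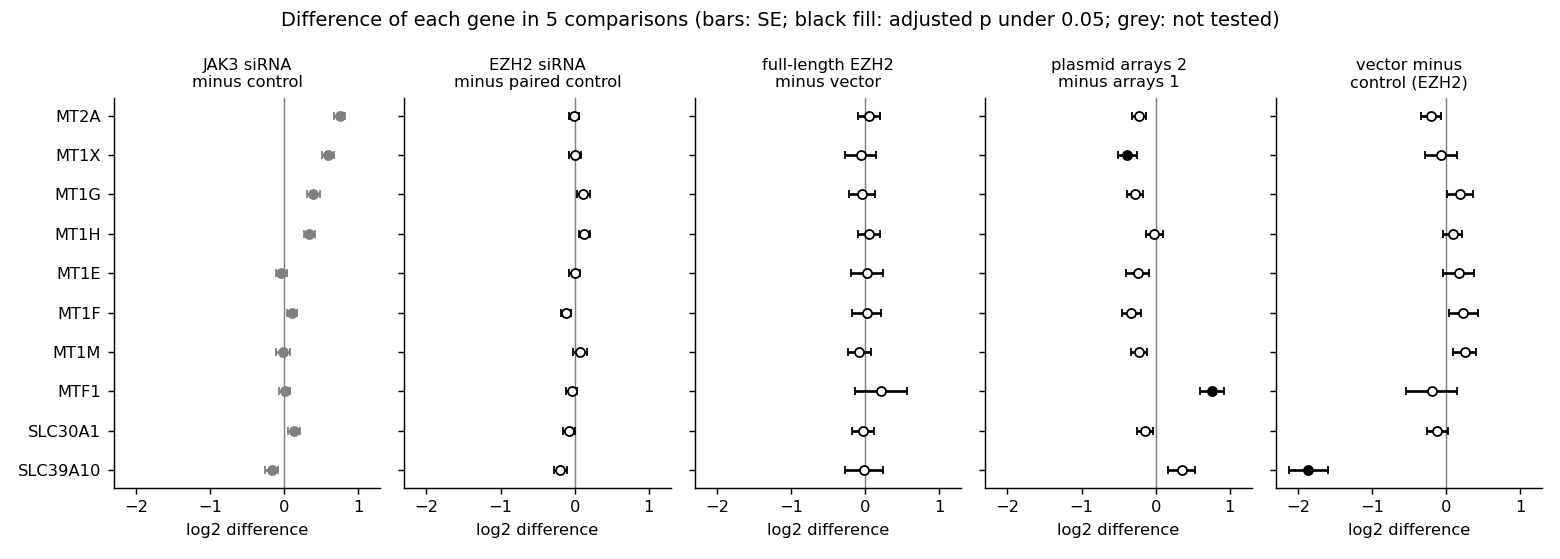
Log2 difference of each of the 10 genes in 5 comparisons, with bars for the SE; black fill marks an adjusted p under 0.05 (limma), and the grey points are the comparison that chose the genes, which is not tested. The metallothioneins MT2A, MT1X, MT1G and MT1H lie right of 0 with JAK3 siRNA and near 0 with EZH2 siRNA, MTF1 is filled at 0.76 between plasmid sets, and SLC39A10 is filled at -1.86 for vector against control siRNA.

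Ordered by group mean, MT2A was highest with JAK3 siRNA (2190 ± 18.7, SD, n = 2), then in its control (1300 ± 15.9, n = 2), with no overlap between these neighbours or with the next. EZH2 siRNA (842 ± 75.1, n = 2) and its control (843 ± 38.2, n = 2) came next and overlapped. The SET-deleted (775, n = 1), full-length (764 ± 79.7, n = 6) and vector (733 ± 24.5, n = 2) groups overlapped too. MT1X had the same first 2 places, 468 ± 2.02 and 311 ± 36.4, and its other 5 groups all overlapped their neighbours. SLC30A1 also placed JAK3 siRNA first (301 ± 6.37) and its control next (274 ± 24.3), and the SET-deleted array last (167). MTF1 had no order beyond its spread, with group means of 415 to 507 and every pair of neighbours overlapping. SLC39A10 had 357 ± 33 with JAK3 siRNA, next below its control (400 ± 7.65), and was lowest on the SET-deleted array (66.7).

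Over the 8 siRNA arrays the log2 signal of MT2A followed that of MT1X (Pearson r = 0.98), MT1H (0.98), MT1G (0.94), SLC30A1 (0.93) and MT1F (0.92) more closely than that of MT1E (0.63), SLC39A10 (0.54), MT1M (0.54) and MTF1 (0.53). Over the 9 plasmid arrays the values were lower, 0.64 for MT1X, 0.615 for MT1G, 0.59 for MT1F, 0.50 for SLC30A1, 0.20 for MT1H and -0.59 for MTF1. These are descriptions over arrays that share groups. The 8 siRNA arrays include those of the contrast that chose the metallothioneins, so a high r among the ones that lay higher follows in part from that choice. For SLC30A1 the gap between the controls of the 2 arms (0.25) was larger than its JAK3 siRNA difference (0.14). Among the other 14423 genes over the filter, those with the pattern most like MT2A over all 17 arrays were TGM4, a transglutaminase (r = 0.98), DUSP4, a phosphatase of MAP kinases (0.92), ACOT12, an acyl-CoA thioesterase (0.91), TRIB1, a pseudokinase (0.90), and IL27RA, a cytokine receptor chain (0.89). Over the 8 siRNA arrays they were SELPLG, the ligand of P-selectin, GNPTAB, BAG2, YPEL2 and ELP3, all with r of 0.99. The JAK3 siRNA difference of these 10 genes was 0.08 (ELP3) to 0.75 (TRIB1), with 0.43 for TGM4 and 0.09 for IL27RA. They were picked over arrays that include those of this contrast, so a positive difference follows in part from the choice.

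Metals, oxidants, glucocorticoids and heat are all known to raise metallothionein transcription, and genes of those responses were examined as lists. Of 8 other metallothionein genes or pseudogenes tested, 1 was higher after JAK3 siRNA, MT1DP, a metallothionein pseudogene (231.1 and 243.5 with JAK3 siRNA, against 163 and 177.2 with the control; log2 difference 0.48, SE 0.076), and the median of the list was 0.07 beside -0.01 for all genes. MT1DP is close in sequence to the functional genes and may share their signal. The lists were chosen with earlier results of these data known, so this call is a description. Of all genes, 0.622% were called higher. Of 8 other zinc exporters and 11 other zinc importers tested, 0 passed, beside 1.38% of all genes, with medians of -0.04 and 0.08. The importers with the largest differences were SLC39A8 (-0.28), SLC39A14 (0.22) and SLC39A11 (0.19), each without a call. Of the 10 copper handling genes 0 passed, with ATP7A, a copper exporter, at -0.25. Of 11 genes of the oxidative stress response that NRF2 drives 0 passed, with the cystine transporter SLC7A11 at 0.46, GCLC, a subunit of the enzyme that begins glutathione synthesis, at -0.25 and the quinone reductase NQO1 at 0.215. Of 9 glucocorticoid response genes 0 passed, with SGK1 at 0.17 and the receptor NR3C1 itself at 0.17. Of 7 heat shock genes 1 passed, the chaperone HSPH1, which was lower (-0.40, SE 0.071). After EZH2 siRNA, 0 genes of these 7 lists passed, beside 0.94% of all genes.

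In the other comparisons zinc transporters passed at shares to be read beside a high background. Between plasmid sets, 5 of 7 other exporters passed (4 higher and 1 lower), beside 34.5% of all genes; SLC30A7 (0.77, adjusted p = 0.00634), SLC30A9 (0.65, 0.0189), SLC30A6 (0.64, 0.018) and SLC30A5 (0.50, 0.0393), which are known from intracellular membranes, were higher in set 2, and SLC30A2 was lower (-0.30, 0.049). Of 11 importers 2 were higher in set 2, SLC39A9 (0.78, adjusted p = 0.0124) and SLC39A1 (0.48, 0.0322). Of 8 other metallothioneins 1 was lower, MT1P3 (-0.47, adjusted p = 0.0227). With vector against the control siRNA of the EZH2 arm, 2 of 11 importers were lower, SLC39A8 (-1.26, adjusted p = 0.000839) and SLC39A6 (-0.755, 0.0419), beside 18.7% of all genes, and 0 of 7 other exporters and 0 of 8 other metallothioneins passed. SLC39A8 had 178.5 and 249 with vector, against 478.2 and 535.4 with the control siRNA. SLC39A6, a close relative of SLC39A10, had 463.8 and 785.9, against 824.6 and 1259, so that its groups lay next to each other without overlap.

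Members of the stress lists passed in both of these comparisons, beside a high background in each. Between plasmid sets, where 34.5% of all genes passed (21.8% higher, 12.7% lower), 3 of 10 copper handling genes were higher in set 2, led by the copper importer SLC31A1 (0.84, adjusted p = 0.00444), as were 2 of 11 NRF2 genes, led by SLC7A11 (0.93, adjusted p = 0.00423). Of 9 glucocorticoid response genes 1 was higher and 4 were lower, led by the phosphatase DUSP1 (-0.83, adjusted p = 0.00386), and of 7 heat shock genes 2 were higher and 1 was lower, led by the co-chaperone DNAJB1 (0.72, adjusted p = 0.00652). Without vector 1 and Y244D 1 the split by set called 5.43% of all genes, 0 of the other metallothioneins, zinc transporters, NRF2 and heat shock genes, 1 copper handling gene (SLC31A1) and 2 glucocorticoid response genes (DUSP1 and ZFP36, both lower). With vector against the control siRNA, where 18.7% of all genes passed (2.8% higher, 15.9% lower), 4 of 11 NRF2 genes were lower, led by thioredoxin, TXN (-1.20, adjusted p = 0.000976), and 1 of 10 copper handling genes was higher and 2 were lower, led by SCO1, a copper chaperone of mitochondria (-0.97, adjusted p = 0.0296). In the same comparison 2 of 9 glucocorticoid response genes were higher and 1 was lower, led by ZFP36 (1.205, adjusted p = 0.000759), an RNA-binding protein gene, and 1 of 7 heat shock genes was higher and 2 were lower, led by DNAJB1 (1.445, adjusted p = 0.00857). With full-length plasmids against vector, 0 genes of any of these lists passed, beside 0% of all genes.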

How the data were processed

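RNA of NKYS cells was extracted with TRIzol and a column and labelled with biotin, per the labels' protocols. The deposited table holds linear signal intensity of 28869 probe sets on 17 arrays; background correction, normalization and probe summary are not given in the sources used here. The deposited intensities were used after log2. Names came from the platform annotation, in which 19310 probe sets have a single symbol, 1752 several and 7807 none, and identifiers set against RefSeq changed 0 symbols. The gene list and all other lists were chosen with earlier results of these data known. Named are the 10 genes, JAK3 and EZH2, the 5 genes most like MT2A by Pearson r over 17 and over 8 arrays, and of each list those called and up to 3 with the largest JAK3 siRNA difference.

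Tests used limma 3.58.1 (lmFit, eBayes; R 4.3.3) over all genes with a mean at or above the 30th percentile of all probe sets, as two-sided tests; p-values were adjusted by Benjamini-Hochberg and called under 0.05. All 8 siRNA arrays entered 1 fit, with the EZH2 pairs, which titles give, as a block; deviations within those pairs correlated with r = -0.085 across genes. JAK3 arm arrays share only a number (r = 0.153) and had no block. Plasmid comparisons used the 8 vector and full-length arrays, without the set number as a block except in the comparison of sets (vector and full-length arrays of a set deviated together, r = 0.841), so that the spread between sets widens the intervals of the other plasmid comparisons, and vector against control siRNA used all 17. No array repeated another (highest correlation 0.9982). The number of arrays limits the precision.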

Additional observations from a re-analysis of the deposited data

Results flagged for a closer look

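In 3 of the 10 genes every full-length array lay on one side of its vector array in plasmid set 1 and on the other side in set 2. The log2 difference of full-length plasmids from vector, set 2 minus set 1, was -0.21 for MT2A (limma, interaction adjusted p = 0.61), -0.58 for MTF1 (0.425) and -0.35 for SLC30A1 (0.469). None of these interactions passed the test, each set has 1 vector array, and set and array spread cannot be told apart.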

How the results depend on the processing

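No value called in the main fits changed sign under an alternative, and none called under an alternative had the opposite sign in the main fit. Alternatives could differ in sign from each other. For vector against control siRNA, MT2A was called at -0.37 with median centring and was at 0.24 after quantile normalization. The median JAK3 siRNA difference of the 7 metallothioneins was 0.282 after quantile normalization and 0.263 to 0.386 when any 1 array was left out, against 0.339. The number of the 10 genes called was 0 for EZH2 siRNA, full-length plasmids and Y244D against Y244A under all 13, 17 and 13 alternatives. Between plasmid sets it was 2, and it was 4 after quantile normalization, 1 with median centring, 1 with trend and robust fitting, 0 without the vector and Y244D arrays numbered 1, and 1 to 5 when any 1 array was left out. For vector against control siRNA it was 1, and it was 2 with median centring, with the mean of probe sets and with all 4 control siRNA arrays, and 1 to 4 when 1 array was left out (4 without vector 2). The causes were not tested. Scaling to equal interquartile ranges and leaving out the vector and Y244D arrays numbered 1 were chosen after seeing the data. With same-numbered JAK3 arm arrays as a replicate block, 2 of the 10 genes were called in place of 4 and 104 genes in place of 200; without the replicate block of EZH2 pairs, 20 genes in place of 136 were called. The replicate block changed no other call of the 10 genes. Over all alternatives the number of all genes called was 33 to 523 for JAK3 siRNA, 0 to 1511 for EZH2 siRNA (0 without either array of pair 1, 1511 without either of pair 2), 783 to 8353 between plasmid sets and 313 to 9529 for vector. Median centring moved the share of calls that were higher to 79.5% in place of 63.2% between plasmid sets and to 16.1% in place of 39.7% with EZH2 siRNA, where quantile normalization gave 58.8%, and it placed the median of all genes at -0.13 in place of 0.04 for vector. Small groups and signals near the lower quartile of an array (32.43 to 38.56) limit what MT1M can show.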
